A study of Mus musculus with 7 samples.

Results

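The genes of the proteasome, the protease that degrades ubiquitin-tagged proteins, were examined in whole mouse embryos at embryonic day (E) 10.5 after exposure to maternal diabetes. Members were all probe sets whose array annotation gives 1 gene symbol that starts with Psm, then a letter from a to g and a number. This rule took 83 of the 22690 probe sets of the array, for 46 genes. They comprised 16 probe sets of 8 alpha subunits of the core, 14 of 10 beta subunits, 11 of the 6 ATPases, 26 of 14 genes of the lid and base, 7 of 3 activators, 4 of 1 inhibitor and 5 of 4 assembly chaperones. A probe set of the activator Psme2 was annotated with more than 1 gene and so fell outside the rule. RNA of single FVB embryos was hybridised to 7 Affymetrix 430A 2.0 arrays, from 5 diabetes-exposed embryos, 2 of them with a neural tube defect (NTD) and 3 without, and from 2 control embryos without NTD. Diabetes had been induced with streptozotocin, a toxin of pancreatic beta cells, in FVB females aged 7 to 9 weeks, and diabetic dams had blood glucose above 250 mg/dl, while the control dam was untreated. All exposed embryos came from 1 diabetic dam and both controls from 1 control dam, so that maternal diabetes and litter cannot be told apart, and p-values reflect the variation among littermates alone.

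The proteasome is a barrel-shaped core particle capped by regulatory particles. In the core, outer rings of alpha subunits form the gate and inner rings of beta subunits hold the proteolytic sites, of which Psmb5, Psmb6 and Psmb7 are the constitutive catalytic subunits and Psmb8, Psmb9 and Psmb10 their interferon-inducible counterparts. In the regulatory particle, the lid and base bind ubiquitin chains and remove them, and a ring of ATPases unfolds the substrate and feeds it into the core. Other caps, the activators Psme1, Psme3 and Psme4, open the gate without ATP, and dedicated chaperones assemble the rings. Subunits are known to be made in fixed proportions, and the transcription factor NFE2L1 is known to raise their genes together when proteasome activity is limiting. Rapidly dividing embryonic tissue depends on the proteasome for the turnover of cell cycle and signalling proteins.

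The signals were on a linear scale, with a trimmed mean of 500.2 and medians of 206 to 218 over the arrays. Below, signals of exposed embryos are listed for embryos 1 and 2 with NTD and then embryos 1, 2 and 3 without NTD, and those of controls for embryos 1 and 2. Exposed embryo 1 without NTD stood apart from the others: the summed signal of 9 markers of yolk sac endoderm and liver was 28047 in it, 1087 to 2110.4 in the other exposed embryos and 2931 to 3105 in controls. The summed signal of 5 primitive red cell genes was 64027 to 83398 in exposed embryos and 51887 to 54080.0 in controls, that of 6 neural markers 5511 to 6414 in exposed embryos and 6594 to 6776 in controls, and that of 6 heart muscle markers 9119 to 10874 in exposed embryos and 8321 to 8607 in controls. All 5 red cell genes were higher without overlap. Of the neural markers, each at its brightest tested probe set, Dcx alone had no overlap, with a log2 fold change of -0.77. Sox2 and Tubb3 gave -0.16 and -0.24, and Pax6, Nes and Neurog2 0.024, -0.00026 and 0.0034. Of the heart markers, Myh7 alone had no overlap, at 0.40. In whole embryos, fewer cells of a type and less RNA per cell cannot be told apart, and the part of these differences in the values below was not tested. The measured genes of the neural, heart and red cell lists all passed the filter on low signals. Of 4 markers of maternal decidua and trophoblast the sum was 684 to 1421 in exposed embryos, highest in exposed embryo 1 without NTD, and 487 to 632 in controls. Each of the 4 overlapped between the groups. Des had 260, 330, 348, 187 and 529 in exposed embryos, against 205 and 49.9 in control embryos (log2 fold change 1.62, SE 0.49). Its other probe set gave 0.28, and Dcn gave 0.22. Prl8a2 had 117, 70.9, 391, 98.1 and 67.4 in exposed embryos, against 46.9 and 86.5 in control embryos. It reached the 40th percentile of the array only in exposed embryo 1 without NTD, and so was not tested. Tpbpa was dim in all embryos and was not tested. Whether the samples held maternal tissue was not tested. Transcripts of the sex chromosomes also differed between the groups. Xist, which is transcribed from the inactive X, was measured at 7533, 256, 6074, 6840.2 and 6098 in exposed embryos, against 181 and 165 in control embryos. The Y-linked Kdm5d had 15.3, 273, 22.4, 23.4 and 25.03 in exposed embryos, against 307 and 358 in control embryos. Exposed embryo 2 with NTD was thus the one exposed embryo with the pattern of the controls, high Y-linked and low Xist signals, so sex cannot be told apart from exposure in the other 4.

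No proteasome subunit passed the test between diabetes-exposed and control embryos. Of the 83 probe sets, 68 for 43 genes had signals at or above the 40th percentile of the array in 2 or more arrays and were tested, and 0 of them passed an adjusted p under 0.05 in limma, against 0.172% of all 14554 tested probe sets, which is 25 (16 higher, 0.11%, and 9 lower, 0.0618%). The smallest adjusted p of a subunit was 0.107. At an unadjusted p under 0.05, 3 probe sets had the higher mean in exposed embryos and 9 the lower, where 7.63% and 8.52% of all tested probe sets did. Among those with a median signal of 1000 or more, 1 of 50 subunit probe sets was higher and 9 lower, against 309 and 210 of all 3484. The 3 higher ones of the 68 include a dim probe set of Psmd4 that was tested through exposed arrays alone. With it counted, 12 of the 68 subunit probe sets (17.6%) passed in both directions together, against 16.2% of all tested. Without control 1 there were 2 and 2 such probe sets, and without control 2 there were 2 and 4. Under the 1.5-fold criteria of the study's methods 0 subunits passed, against 4.34% of all, and with array quality weights in limma 3 were called, against 3.37% of all. The log2 fold change of exposed over control embryos was within 0.25 of 0 for 51 probe sets, and the 95% interval lay wholly within a 1.5-fold difference in either direction for 48 of 68 (70.6%). The same held for 46.3% of all tested probe sets and for 73.5% of those with a median signal of 1000 or more, as 50 of the subunit probe sets had.

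The estimates were more often negative than positive. The median log2 fold change of the 68 probe sets was -0.10, against 0.00033 for all tested probe sets, with 46 negative and 22 positive (67.6% negative, against 49.9% of all). Of the positive ones, 2 dim probe sets of Psmd4 and Psmd9 passed the filter through exposed arrays alone, and without them the median was -0.098. With the brightest probe set per gene the median of 43 genes was -0.045, and with the 50 bright probe sets it was -0.12. All exposed embryos lay below both controls for 16 probe sets (23.5%) and above both for 8 (11.8%), where 13.4% and 11.4% of all tested probe sets did. Among the bright ones the lower count was again 16, or 32.0% of 50 against 12.0% of all bright probe sets. The median SD of log2 signals between exposed littermates was 0.15 for the subunits and 0.22 for all tested probe sets, which are dimmer, with median signals of 1809 and 452. Among probe sets with a median signal of 1000 or more it was 0.13 for the subunits and 0.17 for all, and the median SE of the difference was 0.13 and 0.14. These shares describe subunits of 1 complex, which are not independent of each other, and no test was made over the list.

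**Figure D1:**
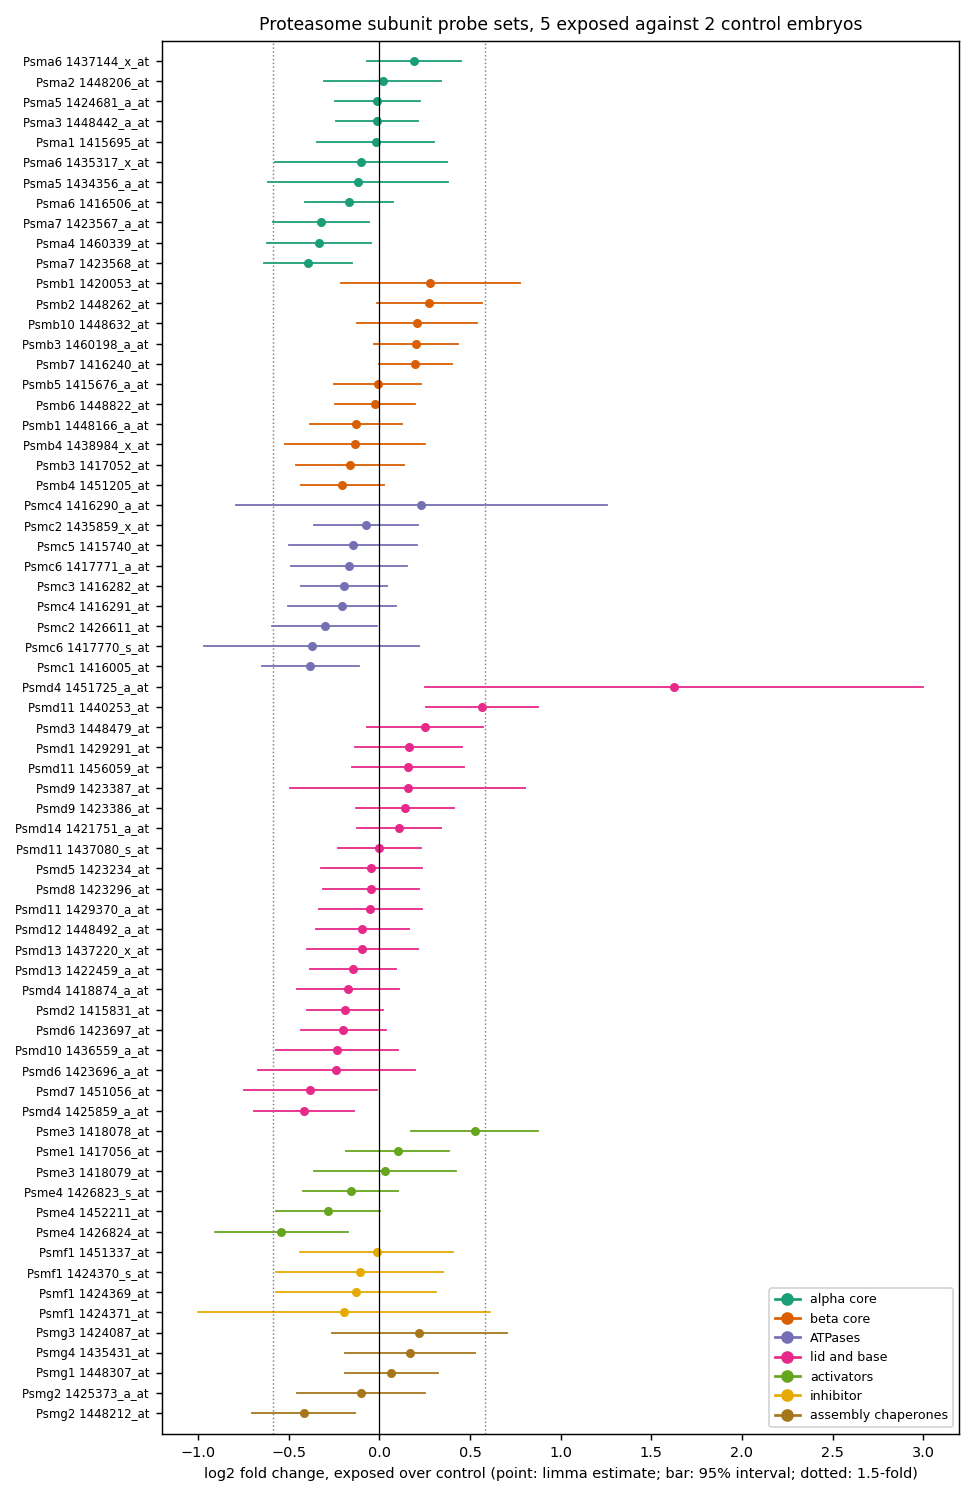
Log2 fold change of exposed over control embryos (x axis) for the 68 tested proteasome probe sets, grouped by subcomplex, with 95% intervals from limma as bars. Of the estimates 46 lie left of 0 and 22 right of it, and the ATPases lie left of 0 in 8 of 9 probe sets.

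The stretches of promoter are shown for subunits on which the values below turn, to place them beside motifs of factors known to act on such genes. RefSeq (GRCm38.p6) gave promoters from 250 bases before to 50 after the start for 38 of the 46 genes. The core of the antioxidant response element, TGACNNNGC, which NFE2L1 is known to bind, was searched on both strands and occurred in 6 of the 38 (15.8%), Psmb5, Psmb6, Psmc6, Psmd9, Psmd12 and Psme4, against 16.3% of the promoters of all genes on the array. The ETS family motif CCGGAAG, which was picked out of 6 motifs after the counts were seen, occurred in 14 (36.8%, against 16.4%). Of the others, CCAAT occurred in 34.2% (42.3%), GGGCGG in 57.9% (61.1%), the YY1 motif in 2.63% (1.35%), and TGACGTCA in 0 of 38 (3% of all on the array). Capitals mark the match, read on the strand of the gene, so that an ETS motif on the other strand reads CTTCCGG. The first pair, of catalytic core subunits, carries the antioxidant motif, and the rest carry the ETS motif.
Psmb5 chr14:54618008-54618067 -: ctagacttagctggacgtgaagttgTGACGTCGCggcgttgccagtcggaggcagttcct
Psmb6 chr11:70525323-70525382 +: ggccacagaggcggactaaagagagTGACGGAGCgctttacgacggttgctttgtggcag
Psmc1 chr12:100110148-100110207 +: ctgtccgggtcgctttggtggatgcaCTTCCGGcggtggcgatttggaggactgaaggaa
Psmc2 chr5:21786697-21786756 +: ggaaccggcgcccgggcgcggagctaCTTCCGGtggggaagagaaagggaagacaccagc
Psmc6 chr14:45329698-45329757 +: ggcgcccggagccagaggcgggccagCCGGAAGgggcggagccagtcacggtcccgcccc
Psmd11 chr11:80428578-80428637 +: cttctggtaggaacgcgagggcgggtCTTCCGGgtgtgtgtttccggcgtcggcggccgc
Psme4 chr11:30771696-30771755 +: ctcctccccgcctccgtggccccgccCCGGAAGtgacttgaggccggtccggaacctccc
The matches began 47 and 9 bases before the start for Psmb5 and Psmb6, and 28, 24, 100 and 11 bases before it for Psmc1, Psmc2, Psmc6 and Psmd11, with 53 for Psme4. Psmb5 and Psmb6 had log2 fold changes near 0, and the genes shown with the ETS motif had estimates of either sign, from -0.54 at a probe set of Psme4 to 0.57 at one of Psmd11. A match is a description of letters and not of a bound site.

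Among the alpha subunits, which form the outer rings and the gate of the core, 9 of 11 tested probe sets had negative estimates, with a median of -0.10. The smallest p belonged to Psma7, with signals of 2854, 2842, 3150.5, 2646 and 2628 in exposed embryos, against 3688 and 3726 in control embryos (log2 fold change -0.40, SE 0.11, adjusted p = 0.134). All 5 exposed embryos lay below both controls. The other probe set of Psma7 had signals of 2143, 2094, 1827, 2257 and 1887 in exposed embryos, against 2586 and 2513 in control embryos (log2 fold change -0.32, SE 0.12, adjusted p = 0.225). Both probe sets thus had the lower mean in exposed embryos with no overlap, and neither passed the test. Psma4 had signals of 3508, 3812, 3320.5, 4572 and 3926 in exposed embryos, against 4639 and 4972 in control embryos (log2 fold change -0.34, SE 0.13, adjusted p = 0.243), and exposed embryo 2 without NTD was close to control 1. The other alpha subunits differed less. Psma2 had 4457, 3779, 5656, 4246 and 4515 in exposed embryos, against 4745 and 4149.5 in control embryos, and Psma3 4136, 4092, 3724, 4150.3 and 3712 in exposed embryos, against 3959 and 4030.5 in control embryos, with log2 fold changes of 0.017 and -0.013 and overlapping groups. The intervals of Psma3 and of the first probe set of Psma5, -0.24 to 0.21 and -0.25 to 0.22, on the log2 scale, lay within 1.5-fold. That of the other tested probe set of Psma5, which was brighter, was -0.61 to 0.38 and reached beyond 1.5-fold (log2 fold change -0.12). Psma8, known as a subunit of testis, had signals of 9.25 to 53.4 in exposed embryos and 12.1 and 27.5 in controls and was not tested.

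The beta subunits, which include the proteolytic sites, were split evenly, with 5 positive and 6 negative estimates, a median of -0.010 and 0 probe sets at an unadjusted p under 0.05. Psmb7, the trypsin-like catalytic subunit, was the brightest, with signals of 9315, 8733, 10053, 9064 and 9498 in exposed embryos, against 8294 and 7971 in control embryos (log2 fold change 0.20, SE 0.091, adjusted p = 0.319). Every exposed embryo was above both controls, and the 95% interval of the difference was -0.0035 to 0.40 on the log2 scale. Psmb5, the chymotrypsin-like subunit, had signals of 3788, 3635, 4036, 3702 and 4418 in exposed embryos, against 3916 and 3951 in control embryos, and its difference of -0.010 had an interval of -0.25 to 0.23. Psmb6, the caspase-like subunit, had 4060.5, 3706, 3853, 3578 and 3894 in exposed embryos, against 3915 and 3850.0 in control embryos, with a difference of -0.025 and an interval of -0.24 to 0.19. For both the groups overlapped, and a difference of 1.5-fold in either direction lies outside the interval. Among the structural subunits, Psmb2 had signals of 2864, 2414, 3206, 2803 and 2935 in exposed embryos, against 2145 and 2555 in control embryos (log2 fold change 0.27, SE 0.13, adjusted p = 0.337), and 4 of the 5 exposed embryos were above both controls. The brighter probe set of Psmb4 had 4241, 3668, 4097, 3669.5 and 4028 in exposed embryos, against 4625 and 4442 in control embryos (log2 fold change -0.20, SE 0.10, adjusted p = 0.362), all exposed embryos below both controls.

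The interferon-inducible catalytic subunits were dim. Psmb8 had signals of 8.56, 10.3, 23.3, 17.4 and 9.63 in exposed embryos, against 4.61 and 20.3 in control embryos, and Psmb9 37.3, 31.4, 82.2, 57.4 and 49.7 in exposed embryos, against 14.8 and 44.6 in control embryos. Both lay under the 40th percentile on every array and were not tested, so no level can be compared. Psmb10, the counterpart of Psmb7, was measured at 262, 253, 243, 269 and 247 in exposed embryos, against 208 and 234 in control embryos (log2 fold change 0.21, SE 0.15, adjusted p = 0.529), with every exposed embryo above both controls. Immune cell markers, which mark the cells in which these subunits are known to be abundant, had a summed signal of 810.3 to 1168 in exposed embryos and 879 to 1024 in controls over 9 genes.

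The ATPases, which unfold substrates and open the gate of the core, had the lowest median of the subcomplexes, -0.20, with 8 of 9 tested probe sets negative and the brightest probe set negative for all 6 genes. Psmc1 had signals of 1370.0, 1216, 1189, 1245 and 1159.9 in exposed embryos, against 1720.5 and 1502 in control embryos (log2 fold change -0.38, SE 0.12, adjusted p = 0.177). The groups did not overlap, and the means were 1236 ± 81.3 in exposed embryos (SD, n = 5) and 1611 ± 154 in control embryos (SD, n = 2). The first probe set of Psmc2 had 3130.2, 2999, 2556, 2824 and 3556 in exposed embryos, against 3688 and 3698 in control embryos (log2 fold change -0.30, SE 0.13, adjusted p = 0.296), again without overlap, but with exposed embryo 3 without NTD close to the controls. Its other probe set, of similar signal, gave -0.072 with overlap. Psmc3 had signals of 2816, 3072, 2802, 2611 and 2925 in exposed embryos, against 3339 and 3169 in control embryos (log2 fold change -0.20, SE 0.11, adjusted p = 0.392), and the brighter probe set of Psmc4 had 1888, 1953, 1485, 1983 and 1885 in exposed embryos, against 2177 and 2046 in control embryos (log2 fold change -0.21, SE 0.14, adjusted p = 0.476). These 4 of 9 probe sets (44.4%) had all exposed embryos below both controls, where 13.4% of all tested probe sets did. Psmc5 and Psmc6 overlapped, with log2 fold changes of -0.14 for Psmc5 and -0.17 and -0.37 for Psmc6. None of the ATPases passed the test, and the difference between ATPases and the other subunits was not tested. Their median was -0.16 to -0.26 over the alternatives of processing and left-out embryos, the weakest without control 1.

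**Figure D2:**
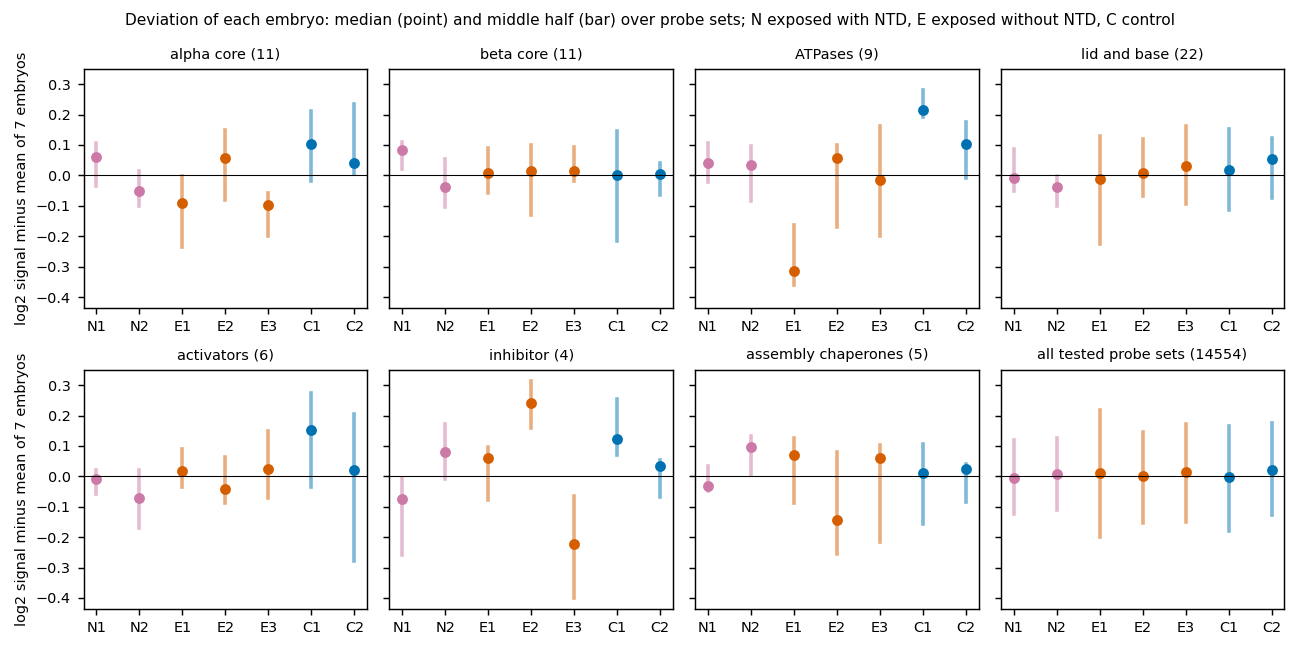
Median (point) and interquartile range (bar) over probe sets of the log2 signal relative to the mean of the 7 embryos (y axis), by embryo (x axis), with a panel for each subcomplex and one for all tested probe sets. N1 and N2 are exposed embryos with NTD, E1 to E3 exposed embryos without NTD, and C1 and C2 controls, and the ATPase median is lowest in E1, at -0.31.

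The median of the ATPases relative to the mean over embryos was 0.042 and 0.035 in the exposed embryos with NTD and -0.31, 0.057 and -0.015 in those free of NTD, against 0.21 and 0.10 in the controls. Exposed embryo 1 without NTD, the one with high yolk sac markers, was the lowest and control 1 the highest. Over all 68 probe sets the medians were 0.015, -0.031, -0.037, 0.034 and -0.014 in exposed embryos, against 0.11 and 0.032 in controls. Exposed embryo 1 without NTD was farthest from the mean for 21 of the 68 (30.9%, against 27.9% of all tested probe sets), and control 1 for 16 (23.5%, against 15.4%). With exposed embryo 1 without NTD left out, the median log2 fold change of the subunits was -0.057 and that of the ATPases -0.19, with 0 subunits called in limma and 5 higher and 8 lower at an unadjusted p under 0.05. Without control 1 the subunit median was -0.053.

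The lid and base comprise the subunits that receive and deubiquitinate substrates, and the group here also held Psmd5, Psmd9 and Psmd10, chaperones of base assembly. Of its 22 tested probe sets, 14 had negative estimates, with a median of -0.049. Of the 13 of lid subunits alone, 9 were negative, with a median of -0.051. The smallest p of all subunits belonged to a probe set of Psmd11, a lid subunit, with signals of 3581, 2838, 3375, 3768 and 3100.3 in exposed embryos, against 2504 and 2003 in control embryos (log2 fold change 0.57, SE 0.14, adjusted p = 0.107). Every exposed embryo was above both controls. The 3 other tested probe sets of Psmd11 gave log2 fold changes of -0.051, -0.00046 and 0.16, all with overlap, the brightest of them with signals of 6101, 5519, 5070.0, 5994 and 5732 in exposed embryos, against 5565 and 5783 in control embryos. Psmd4, a ubiquitin receptor, had signals of 1240.2, 1231, 1034, 1056 and 1131 in exposed embryos, against 1574 and 1459 in control embryos at its second brightest probe set (log2 fold change -0.42, SE 0.13, adjusted p = 0.16), with no overlap. Its brightest probe set had 2607, 2932, 2182, 2522 and 2717 in exposed embryos, against 2839 and 2980.4 in control embryos (log2 fold change -0.17, SE 0.13, adjusted p = 0.532), with overlap. Psmd7, a lid subunit paired with the deubiquitinase, had 1060.5, 889, 714, 1035 and 878 in exposed embryos, against 1273 and 1094 in control embryos (log2 fold change -0.38, SE 0.17, adjusted p = 0.296), all exposed embryos below both controls. Psmd4 and Psmd7 were the 2 subunits of the lid and base with lower means at an unadjusted p under 0.05.

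The other subunits of the regulatory particle differed by less. Psmd14, the deubiquitinase of the lid, had signals of 3852, 3454, 4053, 3661 and 3973 in exposed embryos, against 3431 and 3609 in control embryos (log2 fold change 0.11, SE 0.11, adjusted p = 0.65). Psmd2, a large base subunit to which ubiquitin receptors dock, had 3949, 3968, 3701, 3970.3 and 4034 in exposed embryos, against 4511 and 4442 in control embryos (log2 fold change -0.19, SE 0.095, adjusted p = 0.353), and its partner Psmd1 had 2302, 2412, 2714, 2365 and 3086 in exposed embryos, against 2293 and 2289 in control embryos (log2 fold change 0.16, SE 0.13, adjusted p = 0.586). These 2 base subunits had estimates of opposite sign, each with no overlap between the groups. Psmd3, a lid subunit, was above both controls in every exposed embryo, with 1447, 1560.1, 1754, 1497 and 2015 in exposed embryos, against 1399 and 1360.4 in control embryos (log2 fold change 0.25, SE 0.14, adjusted p = 0.417), while Psmd13 was below them, with 1383, 1438, 1378, 1407 and 1373 in exposed embryos, against 1562 and 1528 in control embryos (log2 fold change -0.15, SE 0.11, adjusted p = 0.528) at its brighter probe set. Both probe sets of Psmd6, also of the lid, had negative estimates, of -0.20 with no overlap and -0.24 with overlap. Psmd8 and Psmd12 overlapped, at -0.048 and -0.094. Of the chaperones of base assembly, Psmd5 gave -0.045, Psmd9 0.14 and Psmd10 -0.23. Psmd10 is the one X-linked member, with signals of 369, 352, 404, 312 and 320.1 in exposed embryos, against 438 and 387 in control embryos. Xist was high in 4 of 5 exposed embryos and in neither control.

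The activators replace the regulatory particle at the ends of the core, and they held both a high and a low estimate. Psme4, known to act in the nucleus, had signals of 1037, 828, 1100.0, 729 and 956 in exposed embryos, against 1373 and 1308 in control embryos at its dimmest probe set (log2 fold change -0.54, SE 0.17, adjusted p = 0.165). The other probe sets of Psme4 had 1674, 2079, 1584, 1810.4 and 1920.2 in exposed embryos, against 2138 and 2259.9 in control embryos (log2 fold change -0.28, SE 0.13, adjusted p = 0.314) and 1872, 1603, 1824, 1959.5 and 1694 in exposed embryos, against 2029 and 1956 in control embryos (log2 fold change -0.16, SE 0.12, adjusted p = 0.541). All 3 estimates were negative, and exposed embryos overlapped controls in the last alone. Psme3, also nuclear, had signals of 607, 544, 509.9, 591 and 672 in exposed embryos, against 462 and 354 in control embryos (log2 fold change 0.52, SE 0.16, adjusted p = 0.159) at one probe set, with every exposed embryo above both controls. Its other tested probe set had 537, 526, 569, 516 and 626 in exposed embryos, against 682 and 430.2 in control embryos (log2 fold change 0.031, SE 0.18, adjusted p = 0.952), with controls on either side of the exposed embryos. Psme1, an interferon-inducible activator, had 1179, 1168, 1476, 1230.4 and 1270.0 in exposed embryos, against 1157 and 1196 in control embryos (log2 fold change 0.099, SE 0.13, adjusted p = 0.737). Psmf1, an inhibitor of the core in vitro, had 4 tested probe sets with estimates of -0.20 to -0.015, all overlapping, the brightest with 589, 562, 698, 812 and 477 in exposed embryos, against 608 and 639 in control embryos.

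The chaperones of the alpha ring, which are not part of the finished particle, had a median of 0.065 over 5 tested probe sets. Psmg2 had signals of 1198, 1173, 967, 1058 and 1007 in exposed embryos, against 1421 and 1453 in control embryos (log2 fold change -0.42, SE 0.13, adjusted p = 0.167), all exposed embryos below both controls, and its other probe set 1109, 1294, 1068, 870.2 and 1270.3 in exposed embryos, against 1221 and 1166 in control embryos (log2 fold change -0.10, SE 0.16, adjusted p = 0.789), with overlap. Its partner Psmg1 had 1436, 1482, 1618, 1629 and 1655 in exposed embryos, against 1555 and 1433 in control embryos (log2 fold change 0.065, SE 0.12, adjusted p = 0.822). The second pair, Psmg3 and Psmg4, had 697, 742, 737, 942 and 489 in exposed embryos, against 535 and 688 in control embryos for Psmg3 (log2 fold change 0.22, SE 0.22, adjusted p = 0.659) and 926, 1024, 1249, 802 and 998 in exposed embryos, against 858 and 902 in control embryos for Psmg4 (log2 fold change 0.17, SE 0.16, adjusted p = 0.644). Their groups overlapped, and the intervals of -0.26 to 0.70 and -0.19 to 0.53 were wide.

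**Figure D3:**
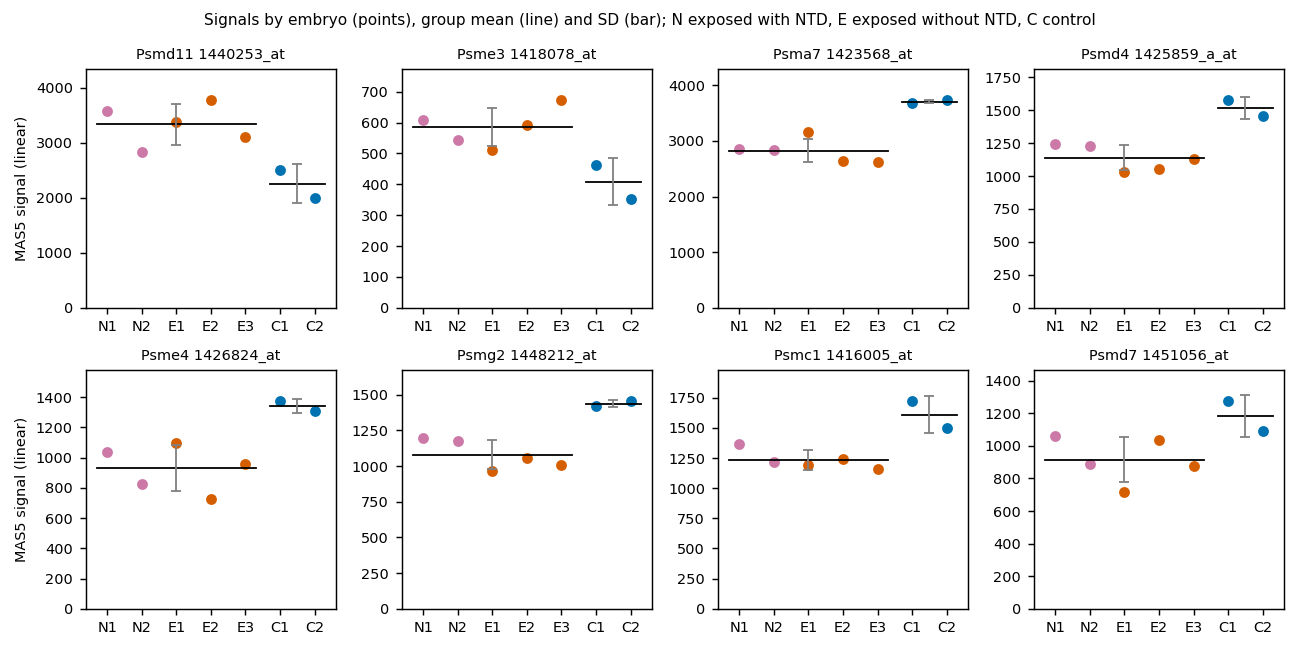
Signals on a linear scale from 0 (y axis) of 8 subunit probe sets with small p, with a point for each of 5 exposed embryos (N with NTD, E without) and 2 control embryos (C), lines for the group means and bars for the SD. Psmd11 and Psme3 lie higher in exposed embryos and Psma7, Psmd4, Psme4, Psmg2, Psmc1 and Psmd7 lower, none with an adjusted p under 0.05.

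Probe sets of the same gene often gave different answers. Of the 18 genes with several tested probe sets, 6 had estimates of both signs, Psma6, Psmb1, Psmb3, Psmc4, Psmd4 and Psmd11. In Psma6, the probe sets gave -0.17, -0.10 and 0.19, the last with signals of 4762, 4756, 4277, 5099 and 4154 in exposed embryos, against 4329.5 and 3748 in control embryos. Psmb1 gave -0.13 at its bright probe set and 0.28 at a dim one, where the signals were 275, 237, 224, 369.7 and 256 in exposed embryos, against 184 and 264 in control embryos. The value at the dim one was 0.021 without control 1 and 0.54 without control 2. Both probe sets of Psmb3 were bright, with 1748, 1847, 1631, 1448 and 1889.6 in exposed embryos, against 2036 and 1788 in control embryos (log2 fold change -0.16, SE 0.13, adjusted p = 0.583) for one and 2565, 2530.3, 2438, 2451 and 2309.9 in exposed embryos, against 2061 and 2214 in control embryos (log2 fold change 0.20, SE 0.11, adjusted p = 0.369) for the other. Psmc4 gave 0.23 at its dimmer probe set, whose signals were 1470.1, 1433, 383, 1030.1 and 1411 in exposed embryos, against 1173 and 659 in control embryos, with an SE of 0.46. In Psmd4 the positive estimate came from a dim remaining probe set with 53.6, 137, 80.5, 80.9 and 159.8 in exposed embryos, against 16.04 and 58.7 in control embryos (log2 fold change 1.63, SE 0.62, adjusted p = 0.24), the one estimate of a subunit beyond 1.5-fold. Both controls lay under the 40th percentile there, and the probe set was tested through 2 high exposed signals alone. Its value was 0.69 without control 1, 2.56 without control 2 and 0.80 with an offset of 50, so the size of the difference is not settled. Without this probe set 5 genes had estimates of both signs. With each embryo left out in turn, both signs stayed in 5 of the 6 genes, all but Psmc4. In Psmd4 they stayed only through the dim probe set that was tested because of high exposed signals. Which part of each transcript the probe sets detect was not examined here.

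**Figure D4:**
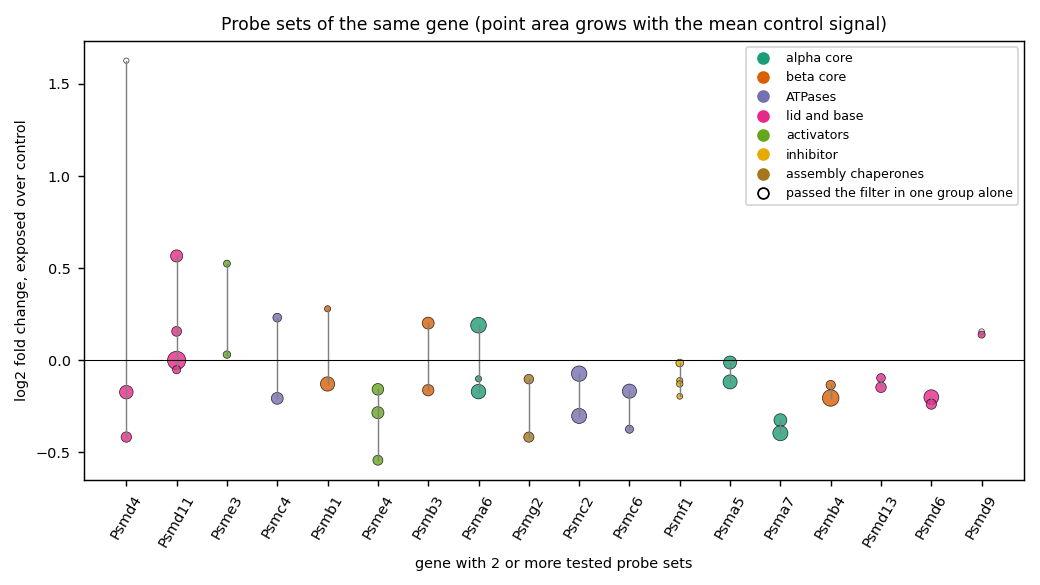
Log2 fold change of exposed over control embryos (y axis) for each tested probe set of the 18 genes with several of them (x axis), coloured by subcomplex, with point area growing with the mean control signal. Open points passed the filter in one group alone. In 6 genes the estimates lie on both sides of 0, in Psmd4 only through such an open point at 1.63, whose controls were under the 40th percentile.

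The 15 probe sets that were not tested had mean signals of 13.4 to 98.9. In 3 of them exposed and control embryos did not overlap, where 24.7% of all tested probe sets had no overlap. Exposed embryos were higher at those of Psma1 and Psmb1 and lower at that of Psmd11. Just inside the filter lay, beside this probe set of Psmd4, a probe set of Psmf1 with 68.8, 148, 126, 137 and 116 in exposed embryos, against 182 and 95.6 in control embryos and one of Psmd9 with 141, 108, 92.1, 141 and 151 in exposed embryos, against 95.2 and 132 in control embryos, both passing in 3 arrays. Just outside it lay a probe set of Psmc6, which passed in 1 array, with 123, 58.0, 35.8, 119 and 64.9 in exposed embryos, against 143 and 82.3 in control embryos. These values are a description of the filter.

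No subunit passed the test between exposed embryos with NTD and those without it. Of the 68 probe sets 0 were called in limma, as was 0% of all 14554, and 1 (1.47%) had an unadjusted p under 0.05, against 440 (3.02%) of all. The median log2 fold change of embryos with over embryos without NTD was 0.025, and the 95% interval lay within 1.5-fold for 55 of 68 (80.9%, against 48.4% of all). Among probe sets with a median signal of 1000 or more it did for 46 of 50 subunit probe sets (92.0%, against 78.7% of all such). The 1 probe set was of Psma6, with signals of 256 and 265 in exposed embryos with NTD, against 183, 190.1 and 172 in exposed embryos without NTD (log2 fold change 0.52, 95% interval 0.11 to 0.93, adjusted p = 0.999). The groups did not overlap at this dim probe set, and the bright ones of Psma6 gave 0.050 and 0.084. Next by p was the dimmer tested probe set of Psmc6, with 742 and 655 in exposed embryos with NTD, against 346, 730.3 and 482 in exposed embryos without NTD (log2 fold change 0.49, 95% interval -0.10 to 1.08, adjusted p = 0.999). It was followed by the dimmer probe set of Psmc4, with 1470.1 and 1433 in exposed embryos with NTD, against 383, 1030.1 and 1411 in exposed embryos without NTD (log2 fold change 0.82, 95% interval -0.21 to 1.85, adjusted p = 0.999). In both, exposed embryo 1 without NTD was the lowest of all 7. The brighter probe sets of Psmc6 and Psmc4 gave -0.034 and 0.12 in this comparison. Of the ATPases, 8 of 9 estimates were positive in this comparison, with a median of 0.11, where 7234 of all 14554 were positive. The ATPase medians relative to the mean over embryos were 0.042 and 0.035 with NTD and -0.31, 0.057 and -0.015 without. Exposed embryo 1 without NTD thus stood apart from the other exposed embryos.

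Set against the same 2 controls, the 2 exposed embryos with NTD gave a median log2 fold change of -0.073 over the subunits and the 3 without NTD one of -0.096. In limma 0 subunits were called in either comparison, against 0% of all tested probe sets for embryos with NTD and 0.295% for embryos without. At an unadjusted p under 0.05, 5 (7.35%) passed for embryos with NTD and 11 (16.2%) for embryos without, where 7.7% and 16.9% of all did. Psmg2 gave -0.28 with NTD and -0.51 without NTD, Psmd4 -0.29 with NTD and -0.50 without NTD at its second brightest probe set, Psma7 -0.38 with NTD and -0.41 without NTD, and Psmd11 0.51 with NTD and 0.60 without NTD. The comparisons share their controls and so are not independent of each other.

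Of the genes tied to the proteasome, none passed the test at its brightest probe set. Of 23 genes that assemble, serve or regulate the proteasome, 19 were tested, each at its brightest probe set. Of these 0 were called, against 0.172% of all tested probe sets. They had 8 positive and 11 negative estimates and a median log2 fold change of -0.062. At an unadjusted p under 0.05, 1 of the 19 was higher and 1 lower, where 7.63% and 8.52% of all tested probe sets were. Ubqln4, a shuttle that carries ubiquitinated proteins to the proteasome, had signals of 863, 1146, 1023, 844 and 1309.5 in exposed embryos, against 806 and 738 in control embryos (log2 fold change 0.41, SE 0.18, adjusted p = 0.299). Its other tested probe set gave 0.01. Ngly1, the deglycosylase that is known to activate NFE2L1, had 296, 296, 313, 266 and 329 in exposed embryos, against 386 and 387 in control embryos (log2 fold change -0.37, SE 0.14, adjusted p = 0.242), all exposed embryos below both controls. Nfe2l1 itself had 846, 825, 779.8, 818 and 1035 in exposed embryos, against 624 and 787 in control embryos (log2 fold change 0.29, SE 0.15, adjusted p = 0.37), and control 2 overlapped the exposed embryos. Pomp, which completes the assembly of the core, had 3171, 2789, 3216, 3188 and 3104 in exposed embryos, against 3444 and 3288 in control embryos (log2 fold change -0.12, SE 0.11, adjusted p = 0.598), and Vcp, which extracts ubiquitinated proteins for degradation, had 7088, 6998, 6409.7, 6624 and 8327 in exposed embryos, against 7564 and 7352 in control embryos (log2 fold change -0.079, SE 0.11, adjusted p = 0.767). Of a list of 10 ubiquitin and E1 enzyme genes, 3 were measured, with 0 of their brightest probe sets called, against 0.172% of all tested. Uba3, an E1 subunit for NEDD8, had 1046, 1214, 1061, 879 and 1504 in exposed embryos, against 1542 and 1642 in control embryos (log2 fold change -0.50, SE 0.18, adjusted p = 0.22), and all exposed embryos lay below both controls. Sae1, an E1 subunit for SUMO, and Uba7, the E1 for ISG15, gave -0.17 and 0.14, both with overlap, while another probe set of Uba7, at 1.42, was among the 25 called.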

How the data were processed

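RNA of single whole embryos was measured on 7 one-colour arrays. The deposited values are linear intensities, MAS5 signals that the authors scaled on each array; the version is not stated in the sources, and no detection calls entered. Gene symbols came from the array annotation (20393 probe sets with 1 symbol, 691 with several, 1606 with none), and all 83 member probe sets matched RefSeq by gene ID. Signals below 1 were set to 1 and log2 values were tested where the signal reached the 40th percentile of the array in 2 or more arrays, leaving out 64 control probe sets.

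Exposed and control embryos (5 and 2), and then the 3 groups by NTD, were compared with limma 3.58.1 in R 4.3.3 (lmFit and eBayes with trend), two-sided, with Benjamini-Hochberg adjustment over all 14554 probe sets. Alternatives were quantile normalization, median centring, a floor of 16, an offset of 50, no filter or one at the 60th percentile, no trend, array quality weights (statmod 1.5.0), a replicate block, embryos with NTD or each embryo left out, the brightest probe set per gene, and criteria after the study's methods. The last were Welch's and Cyber-T tests at an unadjusted p under 0.05 and a difference beyond 1.5-fold (window 101, confidence 10). Subunits with a median signal of 1000 or more were added after seeing the data.

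Named are, in each subcomplex, the 3 tested probe sets of smallest p, the 3 of smallest p for NTD against no NTD, the catalytic beta subunits, Psme1 and Psme3, genes with estimates of both signs, the 3 tested genes of smallest p in each pathway list and the probe sets next to the filter. Other subunits, Pomp and Vcp were named after their values were seen. The members and lists were chosen with earlier results of these data known. Scripts used Python 3.11.15, pandas 2.3.3, NumPy 2.4.6 and Matplotlib 3.10.9. The number of arrays limits the precision.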

Additional observations from a re-analysis of the deposited data

Results flagged for a closer look

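In 3 of the 68 tested probe sets, 1 exposed embryo lay far from the other 4, by a test that flags about 1 in 20 groups by chance. Psmd2 had a signal of 3701 in exposed embryo 1 without NTD and 3949 to 4034 in the other exposed embryos. Psmc4 had 1485 in the same embryo at its brighter probe set and 1885 to 1983 in the others. Psma6 had 3297 in exposed embryo 1 with NTD at 1 of its bright probe sets and 2915 to 3006 in the others.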

How the results depend on the processing

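With 5 exposed and 2 control embryos of 1 litter each, small differences in subunits cannot be resolved, and leaving out a control leaves 1, assumed to vary like the exposed embryos. Subunit calls were 0 in 16 of 17 alternatives of the limma fit and under the methods' criteria and the methods' t-test. The exception was array quality weights, with 3 (Psma7 at -0.41, Psme4 at -0.57 and Psmd11 at 0.56, adjusted p = 0.0347, 0.0478 and 0.0419), where 491 of all probe sets (3.37%) were called. Calls over all probe sets, 25 as reported, were 25 with a floor of 16, 17 to 27 with quantile normalization, median centring, a filter at the 60th percentile or the embryos with NTD left out, 50 with an offset of 50, 8 with no filter, 10 with no trend, 631 under the methods' criteria and 0 with the methods' t-test adjusted. With single embryos left out they were 0 (without control 2) to 58 (without exposed embryo 1 with NTD). The methods' t-test gave 17 subunit probe sets of 14 genes at an unadjusted p under 0.05, 14 of them, of 11 genes, lower, where 18.2% of all probe sets passed. The replicate numbers did not mark shared litters, and same-numbered embryos of different groups had correlations of deviations from -0.25 to 0.026. A replicate block left 0 calls of 25 and gave a subunit median of -0.061. The subunit median was -0.051 with no filter, -0.063 with array quality weights, -0.045 with the brightest probe set per gene, and -0.14 to -0.053 with single embryos left out. Leaving out 1 embryo moved 22 of 37 named values by over 1.5 times, among them the dim probe set of Psmd4 (0.69 to 2.56). Of the 37 probe sets, 5 with estimates near 0 or of large error turned their sign: Psmb5 without the embryos with NTD (0.039) and with single embryos left out (-0.055 to 0.016), the dimmer probe set of Psmc4 (-0.096 without the embryos with NTD, and -0.18 to 0.65 with single embryos left out), 2 probe sets of Psmd11 with single embryos left out (-0.20 to 0.10 and -0.028 to 0.040), the brighter also with median centring (0.0031) and weights (0.020), and the overlapping probe set of Psme3 with the replicate block (-0.013) and with single embryos left out (-0.30 to 0.36). The cause was not tested.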
